A study of Homo sapiens with 8 samples.

Results

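The genes described here encode proteins of microfibrils and elastic fibres, fibronectin, and the matricellular proteins, which sit in the extracellular matrix and act on cells more than they carry load. They are FBN1, FBN2, MFAP2, ELN, FN1, SPARC, THBS1, TNC, TGFBI and VCAN, chosen by gene name as 10 of the 31461 genes that the table lists. Their expression was measured by RNA sequencing in 8 libraries of cultured human lung cancer cells, to search for candidate targets of the microRNA miR-29a-3p. The 4 groups of 2 libraries each were A549 transfected with miR-29a-3p, A549 with a control microRNA, H1299 with miR-29a-3p and H1299 with the control microRNA. Both lines carry the genotype label WT, and each is an established tumour line grown without stroma, A549 from an adenocarcinoma and H1299 from a metastasis of a large cell tumour. How much microRNA was used, and for how long, is not given in the sources used here, and no untransfected library was analysed here. Values are the authors' FPKM, which are corrected for the length of a transcript and the size of a library, so levels can be set side by side between genes.

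Fibrillins polymerise into microfibrils, beaded filaments onto which elastin is deposited to form elastic fibres. Fibronectin is assembled by integrins into fibrils that other matrix proteins bind, and matricellular proteins such as thrombospondin and tenascin modulate adhesion and growth factor signalling. MicroRNAs of the miR-29 family are known to repress many matrix genes by pairing their seed, the bases near the 5′ end, with sites in the 3′ UTR of the mRNA.

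The estimated depth was 12221310 to 15614821 fragments per library, with 12021 to 12837 genes at 1 FPKM or more. Genes that tell the lines apart went against the labels. CDKN2A, a cell cycle inhibitor that is deleted in A549, stood at 23.8 and 24.8 FPKM in the A549-labelled controls and at 0.0513 and 0.112 in the H1299-labelled ones. ALDH1A1, a retinal-oxidising enzyme known to be high in A549 cells, had 57.7 and 60.8 FPKM in the A549-labelled controls and 809 and 785 FPKM in the H1299-labelled ones. Of 8 genes that mark A549, 7 were higher in both H1299-labelled controls than in either A549-labelled one, and GPX2 overlapped. Lines are therefore named by their labels throughout, and a statement about a line holds for the libraries so labelled. Of 10 fibroblast markers, 0 reached 1 FPKM on average in the A549-labelled groups, so the matrix genes there were read in libraries with almost no fibroblast transcripts (summed level 0.273 to 0.286 FPKM after miR-29a-3p and 0.217 to 0.296 in controls).

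The sequences below show the microRNA and the matches to its seed in the 3′ UTRs of the members that carry strong matches and could be measured. The microRNA is from RefSeq (chr7:130876748-130876769, minus strand, GRCh38.p14), with its seed, bases 2 to 8, in capitals. The sites are from GENCODE release 29 transcripts on GRCh38, 5′ to 3′ on the mRNA and written with T. Capitals there mark the match, and in the 8mer the last A lies outside the stretch that pairs with the seed.
hsa-miR-29a-3p: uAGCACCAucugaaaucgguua
FBN1, 8mer: gtccatttatggtacctattTGGTGCTAgt
FBN1, 7mer-m8: ccttaatgtgagggtttgtaaTGGTGCTta
MFAP2, 7mer-m8, nearer the stop codon: ggTGGTGCTgg
MFAP2, 7mer-m8, the other: gccctcgggccctgcctgaccTGGTGCTtt
SPARC, 7mer-m8: agtaggagagattggcccattTGGTGCTgg
The FBN1 windows are chr15:48410565-48410594 and chr15:48410311-48410340, the MFAP2 windows chr1:16974909-16974919 and chr1:16974847-16974876, and the SPARC window chr5:151661376-151661405. All 5 lie on the minus strand in annotated 3′ UTR, and the shorter MFAP2 window is limited by the stop codon just before it.

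The matches were sought on the mRNA strand as TGGTGCTA (8mer), TGGTGCT (7mer-m8), GGTGCTA (7mer-A1) and GGTGCT (6mer), each match being counted once as its longest form. In the longest annotated 3′ UTR of each gene, 3 of the 10 members held an 8mer or 7mer-m8 match, namely MFAP2 with 2, ELN with 3 and SPARC with 1. The longest 3′ UTR of FBN1 belongs to a transcript with 168 coding bases. In the transcript with the longest coding sequence, FBN1 also held 2, which made 4 members of 10. Over all 11632 tested genes with a 3′ UTR, 16.4% held such a match in the longest 3′ UTR. The share was 13.8% in the transcript with the longest coding sequence. By that second choice of transcript, 22.0% of 1720 tested genes with a 3′ UTR of like length to that of FBN1 held such a match. For MFAP2, whose 3′ UTR is 418 bases long, the share was 5.1% of 1214 genes, and for SPARC, with 2475 bases, it was 20.3% of 2069. SPARC held 2 further 7mer-A1 matches, THBS1 held 1, and FBN2 held a single 6mer. FN1, TNC, TGFBI and VCAN held no match of 6 or more letters in the 3′ UTR. Matches of the 8mer or 7mer-m8 form in coding sequence were found in FBN1 (1), FBN2 (2), ELN (3), THBS1 (1), TNC (1) and TGFBI (1). Of tested genes with coding sequence of like length, 57.4% held such a match for FBN1, 56.5% for FBN2, 46.5% for TNC, 35.6% for THBS1, 27.5% for ELN and 25.6% for TGFBI, beside 22.2% of all tested genes with a 3′ UTR.

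**Figure D1:**
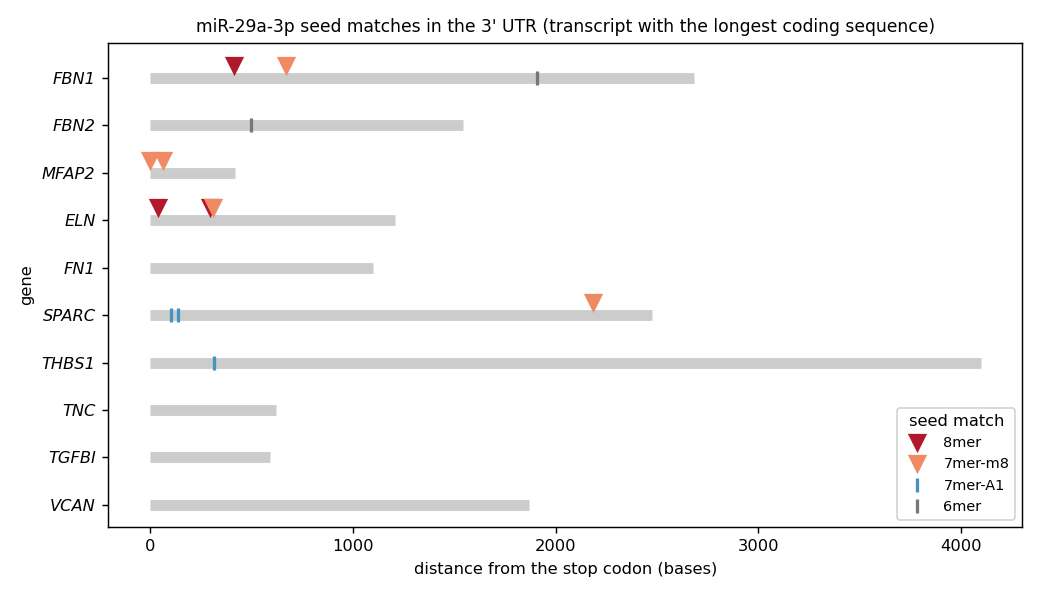
Positions of miR-29a-3p seed matches along the 3′ UTR of each of the 10 genes, as distance in bases from the stop codon (x axis), in the transcript with the longest coding sequence. Grey bars give the length of the 3′ UTR, triangles are 8mer and 7mer-m8 matches and ticks are 7mer-A1 and 6mer matches. FBN1, MFAP2, ELN and SPARC carry triangles, and those of ELN at 297 and 310 bases lie close together.

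In the A549-labelled libraries, microfibril genes were lower after miR-29a-3p than in controls, as were SPARC and THBS1, while FN1, TNC and TGFBI did not pass the test. Of the 9 members tested with limma, 0 rose and 6 fell at an adjusted p under 0.05, beside 7.30% and 8.66% of all 14635 genes tested (16.0% in either direction). The median log2 fold change of the 9 was -0.74, that of all genes 0.00. ELN was not tested because it lay under the filter of 1 FPKM in at least 2 libraries. SPARC passed that filter through the A549-labelled controls only, where it is high, and without it 5 of 8 fell. The median of the 9 is the value of SPARC itself. Without SPARC the median lies between the -0.87 of FBN2 and the -0.23 of VCAN. Log2 fold changes are of FPKM + 1, which understates the change of low genes, and the p-values measure the spread between libraries that the labels number but do not describe as separate cultures.

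FBN1 (ENSG00000166147, chr15:48408306-48645849), the main fibrillin of adult microfibrils, stood at 4.57 and 4.56 FPKM after miR-29a-3p and at 12.4 and 11.5 FPKM in controls of the A549-labelled libraries. Both treated libraries lay far below both controls. The log2 fold change was -1.22 ± 0.057 (SE, limma adjusted p = 0.00022), and the ratio of mean FPKM was 0.381. In bulk RNA, a lower level in each cell and fewer cells with the transcript cannot be told apart. FBN2 (ENSG00000138829, chr5:128257909-128659185), the fibrillin best known from developing tissue, stood at 3.81 and 3.92 FPKM after miR-29a-3p and at 8.18 and 7.54 in controls. It fell by 0.87 on the log2 scale (SE 0.059, adjusted p = 0.00068), also without overlap.

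MFAP2 (ENSG00000117122, chr1:16974502-16980835), a small glycoprotein that binds fibrillin, stood at 4.91 and 4.53 FPKM after miR-29a-3p and at 12.5 and 10.5 FPKM in A549-labelled controls. It fell by 1.12 on the log2 scale (SE 0.095, adjusted p = 0.0013), with treated libraries below both controls. ELN, which encodes the elastin laid down on microfibrils, was not among the genes listed for the A549-labelled libraries and was taken as 0 there. In the H1299-labelled libraries it stood at 0.0042 and 0 FPKM after miR-29a-3p and was listed at 0 in both controls, which is under the value of a single fragment. No response of ELN could therefore be measured, although its 3′ UTR held the most 8mer and 7mer-m8 matches among the 10 genes.

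SPARC (ENSG00000113140, chr5:151661096-151687165), a collagen-binding matricellular protein also called osteonectin, stood at 0.273 and 0.298 FPKM after miR-29a-3p and at 1.20 and 1.10 in A549-labelled controls. The ratio of mean FPKM was 0.249, the lowest among the members in these libraries. On the log2(FPKM + 1) scale the change was -0.74 ± 0.075 (SE, adjusted p = 0.0024), and with a pseudocount of 0.1 it was -1.70 (adjusted p = 0.0196). The counts behind these values were small, an estimated 15.2 and 13.7 fragments after miR-29a-3p and 56.6 and 52.0 in controls. Without either A549-labelled control SPARC fell under the filter and was not tested.

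THBS1 (ENSG00000137801, chr15:39581079-39599466) encodes thrombospondin-1, which binds cell surfaces and can activate latent TGF-beta. It stood at 4.42 and 4.05 FPKM after miR-29a-3p and at 11.2 and 11.0 FPKM in A549-labelled controls. Its log2 fold change was -1.21 ± 0.088 (SE, adjusted p = 0.00079), about as large as that of FBN1. VCAN (ENSG00000038427, chr5:83471465-83582303), the large hyaluronan-binding proteoglycan versican, was low in these libraries, at 0.487 and 0.456 FPKM after miR-29a-3p and 0.740 and 0.712 in controls. It fell by 0.23 on the log2 scale (SE 0.059, adjusted p = 0.047), and this call was lost when any of the 8 libraries was left out (adjusted p = 0.073 to 0.14).

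The remaining members did not pass the test in the A549-labelled libraries. FN1 (ENSG00000115414, chr2:215360440-215436172), fibronectin, stood at 7.15 and 6.33 FPKM after miR-29a-3p and at 5.81 and 5.53 in controls. Its log2 fold change was 0.21, with a 95% interval of 0.066 to 0.36 and an adjusted p of 0.064, and it passed without the second miR-29a-3p library (adjusted p = 0.043). TNC (ENSG00000041982, chr9:115019578-115118257), tenascin-C, a hexameric protein of remodelling tissue, stood at 5.05 and 4.69 FPKM after miR-29a-3p and at 5.41 and 5.26 in controls, a log2 fold change of -0.11 with an interval of -0.28 to 0.057. TGFBI (ENSG00000120708, chr5:136028895-136063818), an integrin- and collagen-binding protein named for its induction by TGF-beta, stood at 15.2 and 14.8 FPKM after miR-29a-3p and at 17.0 and 14.9 in controls. Its treated libraries overlapped the controls, and its log2 fold change was -0.08, with an interval of -0.25 to 0.089.

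**Figure D2:**
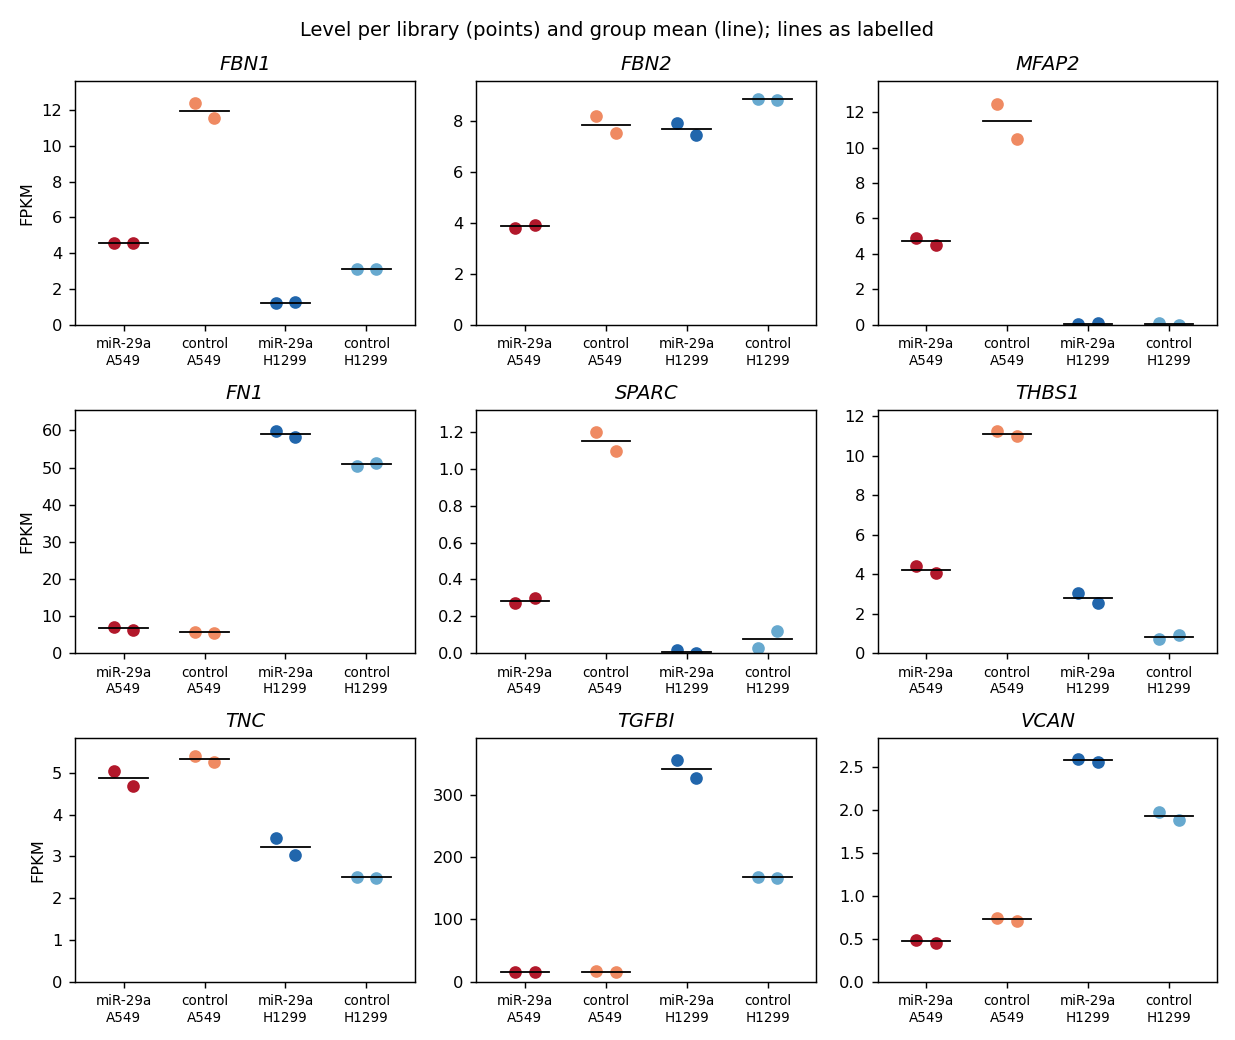
FPKM (y axis, starting at 0 and scaled per gene) of 9 members in each of the 8 libraries, by group (x axis, miR-29a-3p left of its control in each labelled line). Points are libraries and the line is the mean of the 2. FBN1 lies lower after miR-29a-3p in both labelled lines, while THBS1 lies lower in the A549-labelled libraries (4.42 and 4.05 against 11.2 and 11.0) and higher in the H1299-labelled ones (3.07 and 2.56 against 0.737 and 0.907).

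In the H1299-labelled libraries, FBN1 was again lower after miR-29a-3p, while TGFBI and THBS1 were higher, each by about 1 on the log2 scale. Of the 9 members tested, 5 rose (THBS1, TGFBI, VCAN, TNC and FN1) and 2 fell (FBN1 and FBN2), beside 25.1% and 24.8% of all genes tested (50.0% in either direction). Their median log2 fold change was 0.21, that of all genes 0.00. The count of 7 called members was 4 without miR-29a-3p library 1, without control 1 and without control 2 of these libraries, and FBN1, THBS1, TGFBI and VCAN kept their calls when any library was left out.

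FBN1 stood at 1.20 and 1.26 FPKM after miR-29a-3p and at 3.14 in both H1299-labelled controls. The log2 fold change was -0.89 ± 0.057 (SE, adjusted p = 6.8e-05), and the ratio of mean FPKM was 0.391, close to the 0.381 of the A549-labelled libraries. FBN2 stood at 7.92 and 7.44 FPKM after miR-29a-3p and at 8.86 and 8.83 in controls. This was a change of -0.18 ± 0.059 (SE, adjusted p = 0.040), and the call was lost without any 1 of the H1299-labelled libraries (adjusted p = 0.062 to 0.18) and with the replicate number as a block (adjusted p = 0.0501).

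MFAP2 and SPARC were near the limit of detection in the H1299-labelled libraries. MFAP2 stood at 0.0479 and 0.0795 FPKM after miR-29a-3p and at 0.0795 and 0 in controls, an estimated 0 to 1.6 fragments per library. SPARC stood at 0.0176 and 0 FPKM after miR-29a-3p and at 0.0262 and 0.123 in controls, an estimated 0 to 5.6 fragments. A change of either gene was not detectable at this depth (adjusted p = 0.80 and 0.37).

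TGFBI was the most abundant member in the H1299-labelled libraries and rose further, to 355 and 327 FPKM after miR-29a-3p, against 168 and 166 FPKM in controls. The log2 fold change was 1.02 ± 0.069 (SE, adjusted p = 8.4e-05). THBS1 stood at 3.07 and 2.56 FPKM after miR-29a-3p and at 0.737 and 0.907 in controls, a change of 1.06 ± 0.088 on the log2 scale (SE, adjusted p = 0.00017) and a ratio of mean FPKM of 3.42. For both genes all treated libraries lay above all controls. ACTA2, the smooth muscle actin gene of myofibroblasts, moved with them, at 23.3 and 24.2 FPKM after miR-29a-3p and 6.89 and 6.92 in H1299-labelled controls (log2 fold change 1.65, adjusted p = 1.6e-05). It was 1 of 2 tested genes in a list of 5 smooth muscle markers, both of which rose. The summed level was 25.3 to 26.1 FPKM after miR-29a-3p and 7.72 to 7.94 in controls, most of it ACTA2. The other tested gene, TAGLN, stood at 1.90 FPKM on average after miR-29a-3p and 0.871 in controls. MYH11, CNN1 and DES were not tested, with averages of at most 0.039 FPKM in the H1299-labelled groups. Summed fibroblast markers stood at 2.82 to 2.83 FPKM after miR-29a-3p and 1.34 to 1.41 in these controls, with 1 of 10 at 1 FPKM after miR-29a-3p. Summed leukocyte markers stood at 25.8 to 27.2 FPKM after miR-29a-3p and 9.29 to 9.48 in controls, while 0 of 7 endothelial markers reached 1 FPKM. Summed lung epithelium markers stood at 154 to 164 FPKM after miR-29a-3p and 84.3 to 99.5 in controls, and of 4 tested the keratins KRT8 and KRT19 rose and CDH1 fell. The part of these marker genes in the member results was not tested.

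VCAN, TNC and FN1 rose by less. VCAN stood at 2.60 and 2.56 FPKM after miR-29a-3p and at 1.98 and 1.89 in H1299-labelled controls (log2 fold change 0.29 ± 0.059 SE, adjusted p = 0.0075). TNC stood at 3.45 and 3.03 FPKM after miR-29a-3p and at 2.51 and 2.49 in controls (log2 fold change 0.27 ± 0.069 SE, adjusted p = 0.017). These 2 genes had no overlap between groups, but the TNC call was lost without miR-29a-3p library 1 (adjusted p = 0.088), control 1 (0.062) or control 2 (0.069). FN1 stood at 59.8 and 58.1 FPKM after miR-29a-3p and at 50.5 and 51.3 in controls, a change of 0.21 ± 0.061 on the log2 scale (SE, limma adjusted p = 0.031). That call was lost without any 1 of the H1299-labelled libraries (adjusted p = 0.078 to 0.13) and after rescaling each library to TPM (log2 fold change 0.13, adjusted p = 0.19).

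**Figure D3:**
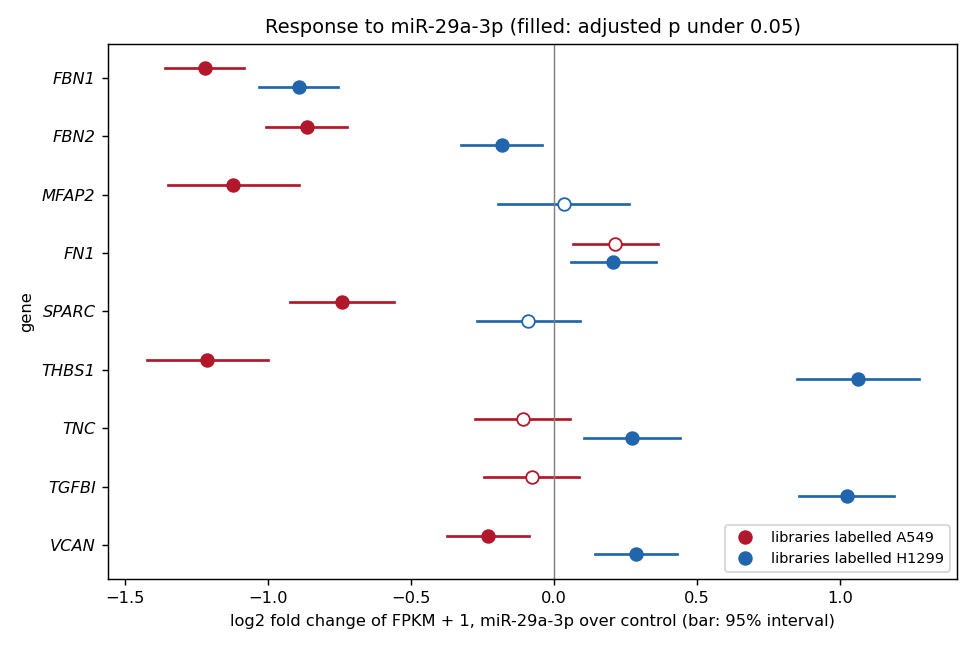
Log2 fold change of FPKM + 1 (x axis, miR-29a-3p over control) with its 95% interval for 9 members (y axis) in the libraries labelled A549 (red, upper) and H1299 (blue, lower). Filled points have an adjusted p under 0.05. THBS1 lies at -1.21 in the A549-labelled libraries and at 1.06 in the H1299-labelled ones, whereas FN1 lies at 0.21 in both.

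The difference between the responses, A549-labelled minus H1299-labelled, was tested in the same fit. MFAP2 and SPARC are set apart here, since they passed the filter through A549-labelled libraries only, and near 0 FPKM in the H1299-labelled ones the pseudocount holds their response near 0. Of the 7 other members, 6 had an adjusted p under 0.05, each with a lower response in the A549-labelled libraries, beside 18.1% of all genes tested with a higher and 19.2% with a lower response, 37.3% in all. With MFAP2 and SPARC the count was 8 of 9, and 5 without A549-labelled control 1. THBS1 had the largest difference, -2.28 ± 0.12 (SE, adjusted p = 0.00012), since its response had opposite signs. VCAN also had opposite signs, with a difference of -0.52 ± 0.084 (SE, adjusted p = 0.0044). However, VCAN passed the filter through H1299-labelled libraries only and lay under 1 FPKM in the A549-labelled ones. The call of its fall there was lost in 11 of 14 alternatives. The values of MFAP2 and SPARC, -1.16 and -0.65, are no evidence of unequal responses. That of TGFBI was -1.10 ± 0.098 (SE, adjusted p = 0.00049) and that of FBN2 -0.68 ± 0.083 (SE, adjusted p = 0.0015).

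FBN1 and FN1 had the smallest differences among the 9 members. The difference for FBN1 was -0.33 ± 0.081 (SE, adjusted p = 0.021) at a pseudocount of 1, but -0.09 (adjusted p = 0.55) at a pseudocount of 0.1, beside the like ratios of mean FPKM of 0.381 and 0.391. For FN1 the difference was 0.01, with a 95% interval of -0.20 to 0.22 (adjusted p = 0.96). The difference for TNC, -0.38 (adjusted p = 0.024), was lost without any 1 of 6 libraries (adjusted p = 0.054 to 0.069) and after rescaling to TPM (adjusted p = 0.0515).

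The baseline of these genes differed widely between the control libraries. Of the 9 members, 5 were higher (MFAP2, THBS1, FBN1, SPARC and TNC) and 3 lower (TGFBI, FN1 and VCAN) in A549-labelled than in H1299-labelled controls, beside 45.0% and 29.8% of all genes tested (74.8% in either direction). MFAP2 and SPARC, which passed the filter through A549-labelled libraries only, had to be higher there. VCAN passed it through H1299-labelled libraries only and had to be lower in the A549-labelled ones, so these places in the count are no result. The median of all genes in this comparison was 0.17 on the log2 scale, -0.01 after median-ratio rescaling and 0.31 after rescaling to TPM. MFAP2 stood at 12.5 and 10.5 FPKM in A549-labelled controls and at 0.0795 and 0 in H1299-labelled ones, a log2 difference of 3.58 ± 0.095 (SE, adjusted p = 3.5e-07). THBS1 differed by 2.74 and FBN1 by 1.65 in the same direction. TGFBI stood at 17.0 and 14.9 FPKM in A549-labelled controls and at 168 and 166 in H1299-labelled ones, a log2 difference of -3.31 ± 0.069 (SE, adjusted p = 1.5e-07), and FN1 differed by -2.96. FBN2 was the member closest between the controls, at 8.18 and 7.54 FPKM in A549-labelled and 8.86 and 8.83 in H1299-labelled ones. Its log2 difference was -0.15 (adjusted p = 0.0505), and -0.36 (adjusted p = 0.0014) after median-ratio rescaling.

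The order of levels changed with miR-29a-3p in the A549-labelled libraries. After miR-29a-3p, TGFBI (15.0 FPKM on average) was followed by FN1 (6.74) and TNC (4.87). MFAP2 (4.72), FBN1 (4.57) and THBS1 (4.24) came next, and the libraries of MFAP2 overlapped those of TNC and FBN1. In the A549-labelled controls, TGFBI (15.9) was followed by FBN1 (12.0), MFAP2 (11.5) and THBS1 (11.1), and then by FBN2 (7.86), FN1 (5.67) and TNC (5.34). The libraries of FBN1 lay above those of THBS1, but the place of MFAP2 is not resolved, since it overlapped both. In the H1299-labelled libraries TGFBI and FN1 led in both groups, and TGFBI lay above 99.5% of tested genes after miR-29a-3p and above 99.0% in controls.

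The responses can be set beside the seed matches, as a description of 9 genes. FBN1, MFAP2 and SPARC are the measured members with an 8mer or 7mer-m8 match in the 3′ UTR of the transcript with the longest coding sequence. FBN1 and MFAP2 fell in the A549-labelled libraries. SPARC was lower there too, but it passed the filter through the controls only, where it is high. In the H1299-labelled libraries FBN1 fell, while MFAP2 and SPARC were too near the limit of detection to show a change. FBN2, THBS1 and VCAN fell in the A549-labelled libraries without an 8mer or 7mer-m8 match in the 3′ UTR. Over the 11632 tested genes with a 3′ UTR, matches were classed by the longest annotated 3′ UTR, under which FBN1 counts as a gene without an 8mer or 7mer-m8 match. By that definition 21.4% of the 1908 genes with an 8mer or 7mer-m8 match and 6.2% of the 7660 with no 6mer were called lower in the A549-labelled libraries. The shares called lower in the H1299-labelled libraries were 38.1% and 22.9%. These shares were not matched for 3′ UTR length.

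Genes whose level followed a member most closely were ranked by Pearson's r over the 8 libraries, which share their 4 groups, so that r is set mostly by the difference between the labelled lines. RARG, a retinoic acid receptor, and TAF11, a general transcription factor subunit, followed FBN1 (r = 0.997 for both), and TAF11 had log2 fold changes of -1.07 and -0.84 in the A549- and H1299-labelled libraries. TGFA, a growth factor of the EGF receptor, followed THBS1 (r = 0.994), with log2 fold changes of -0.59 and 0.57. PXDN, a matrix peroxidase, followed SPARC (r = 0.995), ADAMTS3, a procollagen protease, MFAP2 (r = 0.9998), and LRP1, an endocytic receptor, TGFBI (r = 0.9996). Among the members themselves, TGFBI and VCAN were most alike (r = 0.990), and FBN2 followed none of the others above 0.686.

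Partner genes of these proteins were read in 4 lists. Some of them lay under 1 FPKM in every library of 1 labelled line, where the pseudocount of 1 holds their response near 0. Of 16 tested partners of microfibrils and elastic fibres, 1 rose and 4 fell in the A549-labelled libraries (median -0.07), beside 7.30% and 8.66% of all genes. At a pseudocount of 0.1 the median there was -0.10. With 1 A549-labelled library left out, 0 rose and 2 or 3 fell, and the median was -0.17 without miR-29a-3p library 1, -0.05 without library 2, -0.02 without control 1 and -0.14 without control 2. LOX, which cross-links elastin and collagen, stood at 2.11 ± 0.26 FPKM after miR-29a-3p and 4.54 ± 0.22 in controls (SD, n = 2 each), which is a change of -0.84 on the log2 scale (adjusted p = 0.0023). FBLN2, a fibulin that binds fibrillin and fibronectin, fell by 0.51 (adjusted p = 0.0059), and LOXL1, a second cross-linking enzyme, by 0.36 (adjusted p = 0.045), a call that was lost in 12 of 16 alternatives. Among the same 16 partners 6 rose in the H1299-labelled libraries and 3 fell (median 0.20), near the 25.1% and 24.8%, or 50.0% in all, of all genes. At a pseudocount of 0.1, 7 rose and 4 fell in these libraries (median 0.40). THSD4, an ADAMTS-like protein that promotes fibrillin assembly, stood at 9.06 ± 0.41 FPKM after miR-29a-3p and 28.0 ± 0.20 in controls (SD, n = 2 each), a change of -1.53 (adjusted p = 1.3e-05). EFEMP1, fibulin-3, fell by 0.80 (adjusted p = 0.00022), and FURIN, a protease that processes profibrillin, rose by 0.85 (adjusted p = 0.00018).

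Other matricellular genes included CCN1 and CCN2, which fell in the H1299-labelled libraries. Of 11 tested, 1 rose and 1 fell in the A549-labelled libraries, near the 16.0% called of all genes. The median was -0.02, and -0.04 without miR-29a-3p library 1, 0.0078 without library 2 and -0.02 without control 2. SMOC1, IGFBP7 and CCN5 lay under 1 FPKM in the A549-labelled libraries. At a pseudocount of 0.1 the median there was -0.03. FSTL1, a follistatin-like protein of the SPARC family, stood at 1.43 ± 0.097 FPKM after miR-29a-3p and 3.89 ± 0.030 in controls (SD, n = 2 each), a change of -1.01 (adjusted p = 0.0012), and CCN3, a regulator of cell growth, rose by 0.64 (adjusted p = 0.0018). In the H1299-labelled libraries 2 rose and 7 fell (median -0.45), beside 25.1% and 24.8% of all genes, with 4 higher when either A549-labelled miR-29a-3p library was left out. CCN1 stood at 19.0 ± 0.55 FPKM after miR-29a-3p and 91.5 ± 0.74 in controls (SD, n = 2 each), a change of -2.21 (adjusted p = 2.3e-06), and CCN2 fell by 1.12 (adjusted p = 4.2e-05). Both are integrin-binding proteins known as targets of YAP. ECM1, a glycoprotein of skin and vessel matrix, rose by 1.21 (adjusted p = 0.00013).

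Receptors of these proteins included a fibronectin integrin subunit that fell in both labelled lines. ITGB1, the beta chain of the main fibronectin receptor, stood at 30.8 ± 4.2 FPKM after miR-29a-3p and 66.1 ± 6.0 in A549-labelled controls (SD, n = 2 each), a change of -1.08 (adjusted p = 0.0050). It stood at 114 ± 16 FPKM after miR-29a-3p and 218 ± 22 in H1299-labelled controls (SD, n = 2 each), a change of -0.93 (adjusted p = 0.0019). Of 11 receptors tested, 2 rose and 1 fell in the A549-labelled libraries (median 0.02, and -0.06 without miR-29a-3p library 2), beside 7.30% and 8.66% of all genes. Without control 2, 1 rose. Of the same 11, 5 rose and 2 fell in the H1299-labelled libraries (median 0.43), beside 25.1% and 24.8%, or 50.0% in all. PLAUR, the urokinase receptor that binds vitronectin, rose by 0.57 in the A549-labelled libraries (adjusted p = 0.0083, and 0.052 without control 2), and SDC4, a syndecan of fibronectin adhesions, by 0.29 (adjusted p = 0.0083). In the H1299-labelled libraries ITGB3, the beta chain of a vitronectin and fibronectin receptor, stood at 22.0 ± 1.4 FPKM after miR-29a-3p and 5.58 ± 0.27 in controls (SD, n = 2 each), a change of 1.81 (adjusted p = 2.0e-05). CD47, a thrombospondin receptor, rose by 0.73 (adjusted p = 0.00031).

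Versican partners, enzymes of matrix assembly and matrix proteases formed the last list. Of 14 tested, 1 rose and 5 fell in the A549-labelled libraries (median -0.21, and -0.13 without miR-29a-3p library 1), beside 7.30% and 8.66% of all genes. HAPLN3, HAS2, ADAMTS9, TNFAIP6, MMP7 and FAM20C lay under 1 FPKM in these libraries and passed the filter through the H1299-labelled ones only. At a pseudocount of 0.1 the median was -0.40 in the A549-labelled libraries, where 1 rose and 4 fell, and 0.58 in the H1299-labelled ones. In the H1299-labelled ones 8 rose and 1 fell (median 0.42), beside 25.1% and 24.8%, or 50.0% in all, and 2 fell without either A549-labelled miR-29a-3p library. MMP14, a membrane-bound collagenase, stood at 12.9 ± 1.1 FPKM after miR-29a-3p and 38.7 ± 0.38 in A549-labelled controls (SD, n = 2 each), a change of -1.52 (adjusted p = 0.00022). MMP2, a gelatinase that MMP14 activates, fell by 1.23 (adjusted p = 0.0011). HAS3, a hyaluronan synthase, fell by 0.86 (adjusted p = 0.028), a call that was lost in 10 of 15 alternatives. MMP7, a protease known to cut versican and fibronectin, rose by 1.58 in the H1299-labelled libraries (adjusted p = 2.0e-05). TGM2, a transglutaminase that cross-links fibronectin, rose to 201 ± 4.8 FPKM after miR-29a-3p, against 98.1 ± 0.75 in controls (SD, n = 2 each), and CHPF, which polymerises chondroitin, rose by 0.86 (adjusted p = 7.1e-05).

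**Figure D4:**
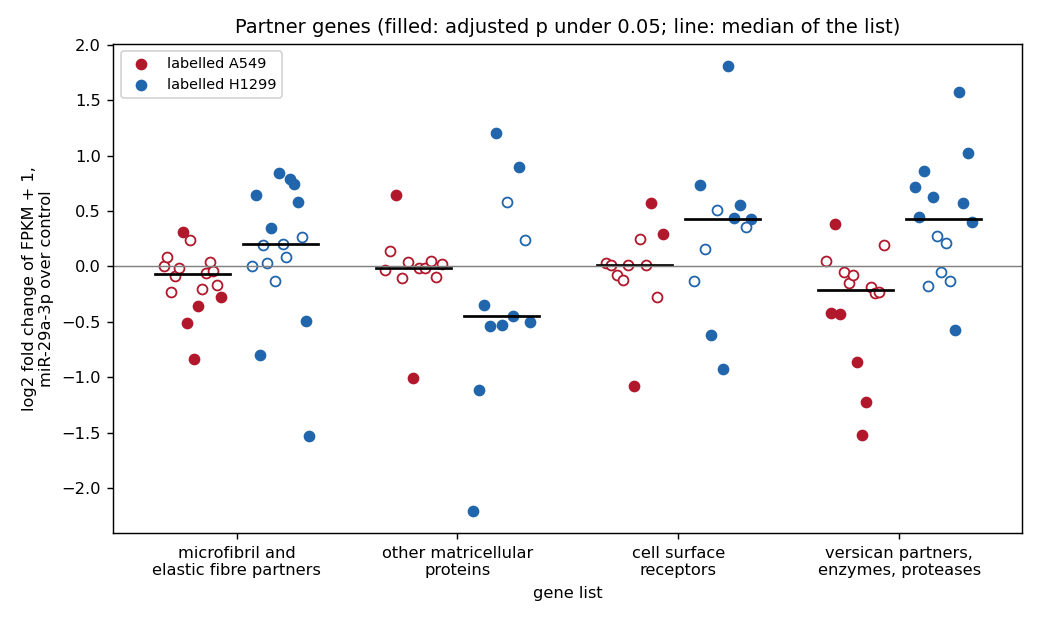
Log2 fold change of FPKM + 1 (y axis, miR-29a-3p over control) of each tested partner gene in 4 lists (x axis), in libraries labelled A549 (red, left) and H1299 (blue, right). Filled points have an adjusted p under 0.05 and the black line is the median of the list. The median of the other matricellular proteins lies at -0.02 and -0.45, while that of the versican partners and enzymes lies at -0.21 and 0.42.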

How the data were processed

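FPKM values, 1 per gene in each library, were deposited by the authors in 1 table with a block of genes for each line. The submitters' processing notes name StringTie and GRCh38. Not given in the sources used here are the aligner, annotation release, versions and strand setting. Where only the other line listed a gene, its value was set to 0, and nothing was rescaled. A gene was tested if 2 or more of the 8 libraries reached 1 FPKM, which 14635 did. The test was limma's (version 3.58.1, R 4.3.3) on log2(FPKM + 1), fitted to all 4 group means with a variance trend and 4 residual degrees of freedom. Adjusted p-values are Benjamini-Hochberg over all genes tested, and a gene was called under 0.05. The script was tested on simulated data.

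Depth was estimated from genes with a single annotated transcript, whose lowest values are whole multiples of 1 fragment. With those totals, 98.1% to 98.9% of their values from 0.5 to 40 fragments, and 90.6% to 96.6% of those up to 100 fragments, came out whole within 0.02. Genes with several transcripts do not keep this, so no count test was run. Libraries of a group differed by more than sampling noise (chi-square over its degrees of freedom 2.70 to 5.21) and were kept as 2 replicates.

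GENCODE release 29, the source of positions and 3′ UTRs on GRCh38, held 31105 of the 31461 identifiers. The members and gene lists were chosen with earlier results of these data known. All 10 members are named. From each partner list, up to 3 called genes with the largest change in each line and a group mean of at least 1 FPKM are named, and for likeness the 2 genes of highest r per member were taken. Alternatives were another pseudocount, other filters, 2 rescalings, a replicate block, no variance trend, each line alone and each library left out.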

Additional observations from a re-analysis of the deposited data

Results flagged for a closer look

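Among members with 10 or more estimated fragments in both labelled lines, 6 passed the test of the difference itself (limma, A549-labelled minus H1299-labelled, log2 scale). The share of all genes tested that passed it was 37.3%. FBN1 and TNC are among the 6, but their calls depended on the processing, as given below. THBS1 differed by -2.28 (adjusted p = 0.00012), and its direction was opposite in all 4 treated libraries, lower in 2 of 2 A549-labelled and higher in 2 of 2 H1299-labelled ones. VCAN differed by -0.52 (adjusted p = 0.0044), also with opposite directions. However, VCAN passed the filter through H1299-labelled libraries only and lay under 1 FPKM in the A549-labelled ones. The call of its fall there was lost in 11 of 14 alternatives. TGFBI differed by -1.10 (adjusted p = 0.00049), with overlapping groups in the A549-labelled libraries and a rise in both H1299-labelled ones. FBN2 differed by -0.68 (adjusted p = 0.0015), being lower in both lines but by more in the A549-labelled one. Its fall of 0.18 in the H1299-labelled libraries lost its call in 9 of 16 alternatives.

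MFAP2 (-1.16, adjusted p = 0.0013) and SPARC (-0.65, adjusted p = 0.0045) also passed that test, but both passed the filter through A549-labelled libraries only and had at most 5.6 estimated fragments in any H1299-labelled library, so these values do not show unequal responses. The SPARC difference was -1.07 (adjusted p = 0.11) with a pseudocount of 0.1. FBN1 differed by -0.33 (adjusted p = 0.021) and TNC by -0.38 (adjusted p = 0.024). These calls were lost in 8 of 15 alternatives for FBN1 and in 7 of 14 for TNC. The FBN1 difference ranged from -0.38 to -0.08 over the alternatives, beside like ratios of mean FPKM of 0.381 and 0.391.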

How the results depend on the processing

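FBN1, MFAP2, THBS1 and FBN2 kept their direction and call in the A549-labelled libraries under every alternative that tested them. So did FBN1, TGFBI, THBS1 and VCAN in the H1299-labelled ones. SPARC was called lower in the A549-labelled libraries in the 13 alternatives that tested it. It was not tested without either A549-labelled control, nor with a mean of at least 5 FPKM required. Requiring a mean of at least 5 FPKM left 4 members to test, of which 3 were called in the A549-labelled libraries (FN1 higher), 4 in the H1299-labelled ones, 3 for the difference and 4 between controls. All genes called were then 3773 in the H1299-labelled libraries, 2984 for the difference and 4923 between controls. With 1 library left out, called members numbered 4 to 7 in the H1299-labelled libraries and 5 to 7 for the difference, and all genes called in the A549-labelled libraries 1045 to 1968, against 2336, and 1365 when that line was fitted alone. Signs turned only for changes that did not pass the test. TGFBI ranged from -0.17 to 0.0101 in the A549-labelled libraries and MFAP2 from -0.0214 to 0.0889 in the H1299-labelled ones with 1 library left out. The difference for FN1 ranged from -0.069 to 0.083 with 1 library left out and was -0.0032 after median-ratio rescaling. The cause was not tested.

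Replicate numbers did not pair the libraries, since deviations of same-numbered libraries correlated at -0.0367 to 0.0625 over genes. With the replicate block, 5 members were called in the A549-labelled libraries and 6 in the H1299-labelled ones, with VCAN (adjusted p = 0.071) and FBN2 (adjusted p = 0.0501) lost. With 2 libraries a group, and an estimated 0 to 5.6 fragments for MFAP2 and SPARC in the H1299-labelled libraries, depth limits what can be said of those genes there.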

Other observations

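Latent TGF-beta binding proteins, microfibril-associated relatives of the fibrillins, were picked out after their values were seen. LTBP1 stood at 10.4 FPKM on average after miR-29a-3p and 5.58 in H1299-labelled controls (log2 fold change 0.79, adjusted p = 0.00016), LTBP2 at 17.9 and 10.3 (0.75, adjusted p = 9.4e-05) and LTBP3 rose by 0.58 (adjusted p = 0.00043). In the A549-labelled libraries their log2 fold changes were -0.21, -0.06 and 0.04, with adjusted p-values of 0.074, 0.50 and 0.74. The difference between the labelled lines passed the test for each (adjusted p = 0.00052, 0.00055 and 0.0040). For LTBP4 the change was 0.27 (adjusted p = 0.061) in the H1299-labelled libraries.

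BMP1, a protease that trims procollagens and latent TGF-beta complexes, was also singled out after its values were seen. It fell by 0.42 in the A549-labelled libraries (adjusted p = 0.0043) and rose by 0.45 in the H1299-labelled ones (adjusted p = 0.00062), and the difference passed the test (adjusted p = 0.00040).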
